A study of Mus musculus with 2 samples.

Results

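The miR-181 family of the mouse consists of 6 hairpin genes in 3 genomic clusters, and all 6 were found among the 1973 microRNA genes of the count tables. The members were picked out by gene symbol: Mir181a-1 with Mir181b-1, Mir181a-2 with Mir181b-2, and Mir181c with Mir181d. Small RNA sequencing of forebrain tissue measured them in newborn mice of strain B6NCrl at postnatal day 0. The samples form 1 group of 2 animals, pup 1 (replicate 1) and pup 3 (replicate 2). No genotype or treatment is named for either, sex was not collected, and both pups carry the same donor record. The design therefore gives the level of each hairpin and its spread between pups, with no contrast between conditions.

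A microRNA hairpin is cut from a longer primary transcript and then yields a 5p arm and a 3p arm, either of which can be loaded into the silencing complex. Targets are recognised mainly through the seed, bases 2 to 8 of the loaded arm. The 5p arms of the miR-181 family are the usual guide strands. They are known for tuning antigen receptor signalling in developing lymphocytes, and in neurons for acting on synaptic receptor messages.

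The mature sequences are shown first because they define the family and decide which arms can be told apart by sequence. All 6 members matched the RefSeq table (GRCm38.p6), which gave 12 mature entries with 10 distinct names. In the following lines the seed is in capitals.
mmu-miR-181a-5p: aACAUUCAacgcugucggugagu
mmu-miR-181b-5p: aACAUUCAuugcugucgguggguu
mmu-miR-181c-5p: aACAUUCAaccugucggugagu
mmu-miR-181d-5p: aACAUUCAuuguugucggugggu
mmu-miR-181a-1-3p: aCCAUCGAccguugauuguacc
mmu-miR-181c-3p: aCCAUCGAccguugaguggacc
mmu-miR-181a-2-3p: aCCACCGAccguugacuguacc
mmu-miR-181b-1-3p: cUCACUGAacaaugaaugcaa
mmu-miR-181b-2-3p: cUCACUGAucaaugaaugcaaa
mmu-miR-181d-3p: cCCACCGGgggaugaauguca

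The 4 distinct 5p sequences had 1 seed in common, and no gene outside the family carried that seed in the table. The 6 distinct 3p sequences had 4 seeds. Mir181a-1 shared its 3p seed with Mir181c, and Mir181b-1 shared its 3p seed with Mir181b-2. Along the whole arm the 5p sequences fell into pairs. The sequence of miR-181c-5p differed from miR-181a-5p by 1 edit (a base changed, gained or lost), and miR-181d-5p differed from miR-181b-5p by 2. The sequences of miR-181a-5p and miR-181b-5p were 4 edits apart.

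The 5p arms of 4 members cannot be assigned to a gene by their sequence. The 23 bases of miR-181a-5p stand in both Mir181a-1 and Mir181a-2, and the 24 bases of miR-181b-5p stand in both Mir181b-1 and Mir181b-2. Their 3p arms, and both arms of Mir181c and Mir181d, were found at no other gene of the table. The hairpins of the first 4 members are printed with the longest stretch that recurs in the partner hairpin in capitals.
Mir181a-1: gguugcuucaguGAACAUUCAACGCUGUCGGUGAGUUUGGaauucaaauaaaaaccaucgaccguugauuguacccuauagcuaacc
Mir181a-2: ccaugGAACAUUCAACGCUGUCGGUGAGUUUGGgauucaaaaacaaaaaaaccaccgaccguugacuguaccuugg
Mir181b-1: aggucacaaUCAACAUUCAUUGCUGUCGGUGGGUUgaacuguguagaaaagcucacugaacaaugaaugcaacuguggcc
Mir181b-2: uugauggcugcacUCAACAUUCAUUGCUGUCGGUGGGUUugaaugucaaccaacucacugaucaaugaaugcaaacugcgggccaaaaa

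The shared stretch was 28 bases long in the Mir181a hairpins and 26 in the Mir181b hairpins, and in each it spans the whole 5p arm. The longest stretch of the Mir181d hairpin that recurred in another hairpin searched was 13 bases, and the hairpin of Mir181c was not used here. Reads that map to several places were tallied by the authors apart from the genes and made up 43.0% of all reads in pup 1 and 43.5% in pup 3. How many of them came from miR-181a-5p and miR-181b-5p was not tested. A read that lies wholly within a shared stretch fits both hairpins, so it belongs to the tally of reads that map to several places. The counts of Mir181a-1, Mir181a-2, Mir181b-1 and Mir181b-2 therefore leave out such reads, the exact 5p arm among them. They are uncertain as totals of a hairpin. The counts of Mir181c and Mir181d pool both arms, which cannot be separated here.

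The clusters lie on 3 chromosomes (GRCm38, GENCODE M21). Mir181a-1 (ENSMUSG00000065565.1) occupies positions 137966455 to 137966541 of chromosome 1, plus strand, and Mir181b-1 (ENSMUSG00000065458.1) follows from 137966639 to 137966718, with 97 bases between them. They overlap an exon of the long noncoding gene A430106G13Rik and lie in an intron of Gm4258, each on the same strand. Both also lie in an intron of Gm26936, a long noncoding gene on the opposite strand. Mir181a-2 (ENSMUSG00000065423.1) occupies positions 38852735 to 38852810 of chromosome 2, plus strand, and Mir181b-2 (ENSMUSG00000065578.1) lies from 38853830 to 38853918, with 1019 bases between them. This cluster is in an intron of Nr6a1, an orphan nuclear receptor gene on the opposite strand, and Mir181b-2 also overlaps an exon of Gm44144 on the opposite strand. Mir181c (ENSMUSG00000065483.1) occupies positions 84178873 to 84178961 of chromosome 8, minus strand. Mir181d (ENSMUSG00000076338.1) lies from 84178716 to 84178787, with 85 bases between them, and both are in an intron of Nanos3, a germ cell gene on the same strand. The positions of Mir181c come from version 2 of its gene record, while the tables carry version 1.

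The libraries held 9037087 reads assigned to microRNA genes in pup 1 and 7678662 in pup 3. A level is given below as CPM, the count per 1000000 of these assigned reads. As a check of the tissue label, 16 microRNAs chosen for neurons held shares of 4.21% (pup 1) and 5.24% (pup 3), led by Mir137 at 28970 ± 6541 CPM (SD, n = 2). The 3 Mir124a hairpins of that list, a defining neuronal microRNA, stood between 1.497 and 9.85 CPM on the mean. These counts leave out any read that fits more than 1 of the 3, and how many did was not tested. The level of the mature microRNA is therefore not given by them. The Hox cluster microRNAs of more caudal tissue took 0.0196% and 0.0148%, with 1 of 6 at 0. Endothelial microRNAs took 4.12% and 3.77%, and muscle microRNAs took 0.00959% and 0.00451%, with 3 of 5 at 0 in both pups. For reads assigned to a gene, a count of 0 allows up to 0.332 CPM in pup 1 and 0.391 CPM in pup 3. Reads that map to several places are in none of these counts, so a 0 sets no limit on them. Whether the genes at 0 share an arm with another gene is not given here. Blood cell microRNAs are of interest here because lymphocytes also make miR-181. The 8 of 10 listed genes that were in the tables took 0.0945% and 0.118%. None of them was at 0, and their part in the miR-181 counts was not tested.

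The family took 2.55% ± 0.108 of the assigned reads (SD, n = 2). Its 223368 reads in pup 1 were 2.47% of the library (95% Wilson interval 2.46 to 2.48) and its 201535 reads in pup 3 were 2.62% (2.61 to 2.64). Intervals on counts cover counting error only. All of these reads lay on the strand of the hairpin: the opposite strand held 0 reads for every member in each pup. For Mir181c, the most deeply read member, the limit that a count of 0 allows (3 counts of its total) was 0.00274% in pup 1 and 0.00323% in pup 3. For Mir181b-1, the least read, the limits were 4.11% and 4.05%.

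Mir181c, Mir181a-1 and Mir181d supplied 97.4% of the family's reads in pup 1 and 95.7% in pup 3, and the other 3 members supplied 2.58% and 4.28%. Mir181c had 109665 reads in pup 1 and 92893 in pup 3, or 12135 and 12098 CPM, with a mean of 12116 ± 26.5. Mir181a-1 had 73643 and 57611 reads, or 8149 and 7503 CPM, with a mean of 7826 ± 457. Mir181d had 34300 and 42402 reads, or 3795 and 5522 CPM, with a mean of 4659 ± 1221 (each SD, n = 2). The counting intervals of Mir181c overlapped between the pups, at 12064 to 12207 CPM in pup 1 and 12021 to 12175 in pup 3. Those of Mir181a-1 and Mir181d did not overlap, and Mir181d was the higher in pup 3.

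The remaining members were present at lower levels. Mir181b-2 had 4771 reads in pup 1 and 8047 in pup 3, or 527.9 and 1048 CPM, with a mean of 788 ± 367.7. Mir181a-2 had 916 and 508 reads, or 101.4 and 66.2 CPM, with a mean of 83.8 ± 24.9. Mir181b-1 had 73 and 74 reads, or 8.08 and 9.64 CPM, with a mean of 8.86 ± 1.10 (each SD, n = 2). Mir181b-2 was the higher in pup 3 and Mir181a-2 the lower, each with counting intervals that did not overlap. The intervals of Mir181b-1, at 6.43 to 10.2 and 7.68 to 12.1 CPM, overlapped.

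**Figure D1:**
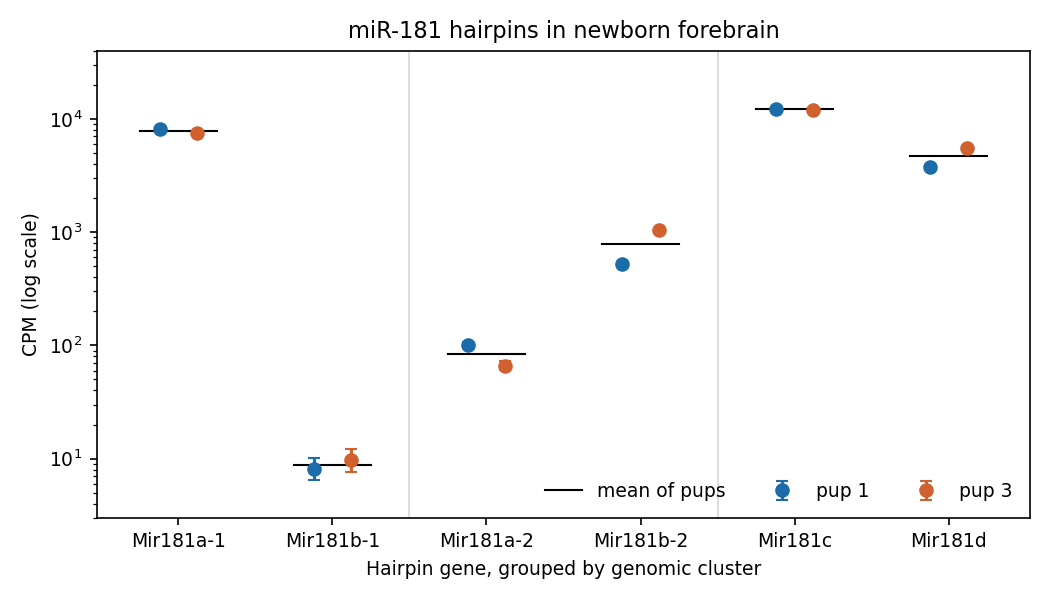
Level of each miR-181 hairpin in CPM on a log axis, by genomic cluster. Blue points are pup 1, orange points pup 3, bars are 95% Wilson intervals (smaller than most points) and the line is the mean. Mir181c is the highest, near 12116 CPM, and Mir181b-1 the lowest, near 8.86.

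The order from Mir181c through Mir181a-1, Mir181d, Mir181b-2 and Mir181a-2 to Mir181b-1 was the same in each pup. At all 5 steps of this order the gap between the means was larger than the sum of the SDs of the neighbours. Mir181c stood 1.49-fold above Mir181a-1 in pup 1 and 1.61-fold in pup 3. Mir181a-1 stood 2.15-fold above Mir181d in pup 1 and 1.36-fold in pup 3. The step from Mir181d to Mir181b-2 was 7.19-fold and 5.27-fold. From end to end the family spanned 1502-fold in pup 1 and 1255-fold in pup 3. These steps compare unlike counts: the Mir181a and Mir181b hairpins leave out their exact 5p reads, while no arm of Mir181c or Mir181d recurs exactly among the entries searched. How reads with near matches elsewhere were counted was not tested. The order is one of assigned reads, and whether it holds for whole hairpins was not tested. The order was taken from CPM, with no scaling by length. Per 100 bases of hairpin it was the same, from 13614 ± 29.7 CPM for Mir181c to 11.1 ± 1.38 for Mir181b-1 (SD, n = 2).

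In the ranking of all 1973 genes by mean CPM, Mir181c was in place 17, Mir181a-1 in place 23 and Mir181d in place 47. Mir181b-2 was in place 113, Mir181a-2 in place 228 and Mir181b-1 in place 318. These places rest on assigned reads, which leave out the exact 5p reads of the Mir181a and Mir181b hairpins. The design has a single condition, so the genes most like each member were taken by level over the 2 samples. Mir135b (12128 ± 3113 CPM) and Mir22 (9611 ± 922 CPM) stood next to Mir181c, and Mir125a (9039 ± 558 CPM) and Mir708 (7741 ± 1205 CPM) next to Mir181a-1. Mir181d had Mir23a (4659 ± 1127 CPM) just above it and Mir204 (4538 ± 1010 CPM) just below, and each of these was lower in pup 3 while Mir181d was higher. Mir28a (792 ± 357.6 CPM) and Mir337 (779 ± 167 CPM) enclosed Mir181b-2. Mir193b (84.2 ± 36.0 CPM) and Mir301b (80.2 ± 18.4 CPM) enclosed Mir181a-2, and Mir1969 (8.87 ± 5.50 CPM) and Mir1188 (8.76 ± 2.63 CPM) enclosed Mir181b-1 (each SD, n = 2).

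The clusters contributed unequally. The Mir181c and Mir181d cluster held 65.8% ± 1.90 of the family's reads, at 64.5% in pup 1 and 67.1% in pup 3. The cluster of Mir181a-1 and Mir181b-1 held 30.8% ± 3.10, at 33.0% and 28.6%. The cluster of Mir181a-2 and Mir181b-2 held 3.40% ± 1.20, at 2.55% and 4.24% (each SD, n = 2). These shares leave out whatever the clusters on chromosomes 1 and 2 contributed to reads that map to several places. The order of the clusters was the same in each pup.

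Neighbouring hairpins of a cluster are often cut from a single primary transcript, yet the a and b hairpins stood in opposite order in the clusters on chromosomes 1 and 2. Mir181a-1 exceeded Mir181b-1 by 1002-fold in pup 1 and 773-fold in pup 3, a mean log2 ratio of 9.78 ± 0.26 (SD, n = 2). The 95% exact binomial intervals of the log2 ratio were 9.65 to 10.33 and 9.28 to 9.95. On chromosome 2 the b hairpin was the higher: Mir181b-2 exceeded Mir181a-2 by 5.21-fold in pup 1 and 15.8-fold in pup 3. The log2 ratio of Mir181a-2 over Mir181b-2 was -2.38 (-2.48 to -2.28) in pup 1 and -3.98 (-4.12 to -3.86) in pup 3, with a mean of -3.18 ± 1.13. Exact 5p reads of these 4 hairpins also fit the partner locus and are left out of the counts. How much of each count is 3p arm was not tested. Mir181c exceeded Mir181d by 3.20-fold in pup 1 and 2.19-fold in pup 3, a mean log2 ratio of 1.40 ± 0.39 (SD, n = 2). In this pair no arm recurs exactly among the entries searched.

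These ratios were set beside those of other neighbours, 118 pairs of adjacent hairpins on the same strand within 10 kb that each had 10 or more counts in both pups. Their median absolute log2 ratio was 2.76, and 58.5% of the pairs were at least 4-fold apart on the mean of the pups. The pair of Mir181a-1 and Mir181b-1 had the third largest imbalance of the 118, that of Mir181a-2 and Mir181b-2 was in place 53, and Mir181c and Mir181d were in place 82. Between pups the ratio changed at least 1.5-fold in 39% of the pairs, with a median absolute change of 0.44 on the log2 scale. The ratio of Mir181a-2 to Mir181b-2 changed 3.04-fold, the fourth largest change of the 118. The ratio of Mir181a-1 to Mir181b-1 changed 1.30-fold and that of Mir181c to Mir181d 1.46-fold, both short of 1.5-fold. The counts of the Mir181a and Mir181b hairpins leave out their exact 5p reads here too. Some other pairs, such as Mir30c-1 with Mir30e in place 6 by imbalance, also hold a hairpin whose exact 5p reads are left out. How far this sets the places was not tested. Pairs share hairpins and lie in common clusters, so they are no independent sample, and the comparison is a description. It was chosen after the member values were known.

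**Figure D2:**
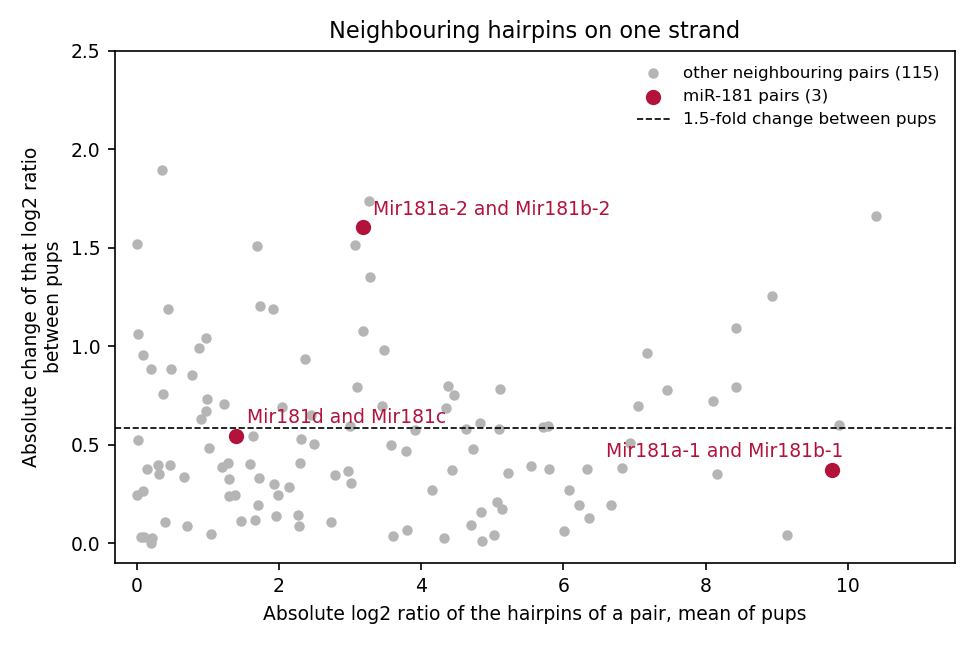
Imbalance and stability of 118 neighbouring hairpin pairs, each point a pair. The x axis is the absolute log2 ratio of the hairpins averaged over the pups, and the y axis is its absolute change between pups in log2 units, with a dashed line at 1.5-fold. Mir181a-1 with Mir181b-1 lies far right at 9.78 with a small change of 0.37, and Mir181a-2 with Mir181b-2 lies high at 1.60.

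Between the pups, 2 of the 6 members differed at least 1.5-fold, and both were higher in pup 3. With libraries scaled by edgeR's TMM factors, Mir181b-2 was 2.28-fold higher in pup 3, or 1.19 on the log2 scale (exact binomial 95% interval 1.14 to 1.24). Mir181d was 1.67-fold higher, a log2 ratio of 0.74 (0.72 to 0.76). Over the 310 genes that averaged at least 10 CPM, 17.4% were at least 1.5-fold higher in pup 3, 15.5% at least 1.5-fold lower and 32.9% either. A count of 2 of 6 members is near that background, and at the same 10 CPM limit the count was 2 of 5. Each side is a single library, so the ratios have no replicate check and no p-value is given.

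The other members stayed under 1.5-fold. Mir181c had a log2 ratio of 0.20 (0.18 to 0.21) and Mir181a-1 of 0.08 (0.07 to 0.10), and both were below 0 when libraries were scaled by total counts, at -0.0045 and -0.12. Mir181b-1 had 0.45 with an interval from -0.03 to 0.94, so at this depth its difference was within counting error. Mir181a-2, at -0.41 (-0.57 to -0.26), was the only member lower in pup 3 under TMM. The median over the 6 members was 0.33. Over the 5 that averaged at least 10 CPM it was 0.20, beside -0.03 over the 310 genes. Scaling by total counts moved every log2 ratio by -0.20. Mir181b-2 (0.99) then stayed past 1.5-fold, Mir181d (0.54) did not, and Mir181a-2 (-0.61) passed in the lower direction. Under that scaling 12.3% of the 310 genes were past 1.5-fold higher and 23.5% lower, in place of 17.4% and 15.5%.

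**Figure D3:**
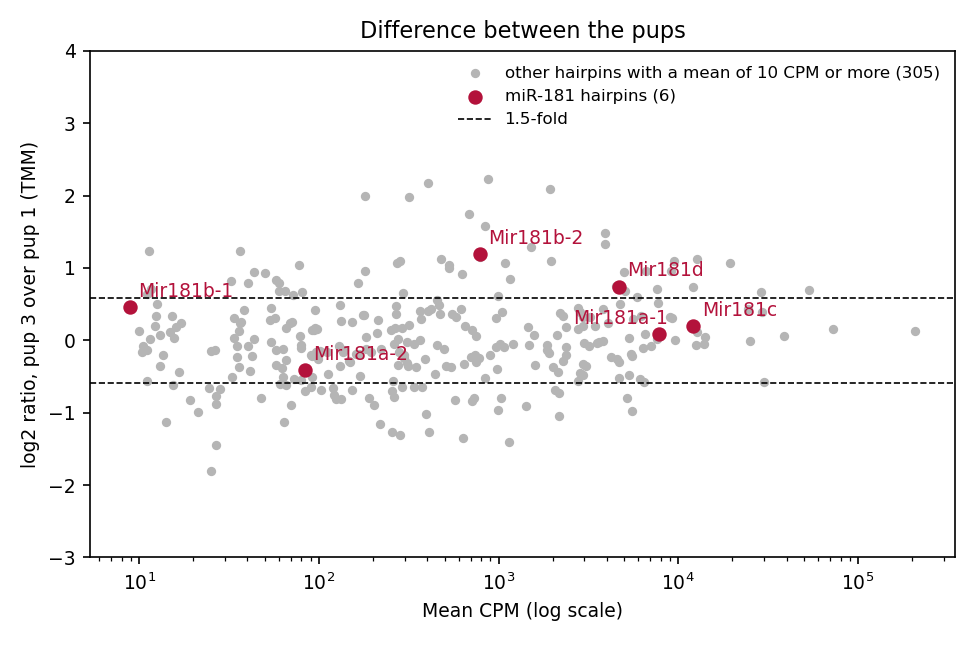
Log2 ratio of pup 3 over pup 1 after TMM scaling against mean CPM on a log axis, each point a hairpin gene, with dashed lines at 1.5-fold. The 6 miR-181 hairpins are red (Mir181b-1, at 8.86 CPM, is below the 10 CPM limit of the gray points). Mir181b-2 at 1.19 and Mir181d at 0.74 lie above the upper line and the other 4 lie between the lines.

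Other measures also differed between these libraries. The list for epithelium held only the 5 hairpins of the miR-200 family. They made up 0.368% of the library in pup 1 and 1.05% in pup 3, where all 5 were past 1.5-fold higher. None was at 0 in either pup. Mir203 and Mir205, epithelial microRNAs outside that list, had TMM log2 ratios of 0.07 and 0.24, both under 1.5-fold. The 5 hairpins therefore stand for their family and not for epithelium as a whole. Of the 16 neuronal microRNAs in the tables, 12 averaged at least 10 CPM, and of these 5 were past 1.5-fold higher and 2 past 1.5-fold lower under TMM, against 17.4% and 15.5% of the 310 genes. By total counts these were 3 higher and 2 lower, while all 5 miR-200 hairpins were again past 1.5-fold higher. Whether the higher Mir181b-2 and Mir181d in pup 3 go with the tissue taken from each pup was not tested. In whole tissue, fewer cells of a type and less RNA per cell cannot be told apart.

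Because 4 of the 6 members have a 5p arm that recurs at another gene, they were set beside other genes of this kind. Of 916 genes of the count tables with mature entries, 88 had an arm whose exact sequence occurs at another gene, and 51 of these had 2 listed arms of which 1 recurs. Mir181a-1 had the highest mean CPM of the 88. Among the 51 the median was 54.0 CPM, and Mir181a-1 was in place 1, Mir181b-2 in place 12, Mir181a-2 in place 21 and Mir181b-1 in place 31. A level of 1000 CPM or more was reached by 10 of the 51. Within the family, the 4 members with a recurring 5p arm ranged from 8.86 to 7826 CPM.

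The miR-30 family has the same layout, 6 hairpins in 3 pairs, and the miR-23, miR-27 and miR-24 hairpins form paralogous clusters. The miR-30 hairpins took 2.73% and 4.59% of the assigned reads in pups 1 and 3, against 2.47% and 2.62% for miR-181. These shares are unlike: 4 miR-181 hairpins leave out their exact 5p reads, and in miR-30 only Mir30c-1 and Mir30c-2 do. They do not show which family is the more abundant. The miR-30 levels spanned 279-fold in pup 1 and 503-fold in pup 3, and those of 5 measured miR-23/27/24 hairpins 61.7-fold and 87.0-fold. Both were below the 1502-fold and 1255-fold of miR-181, whose low end is Mir181b-1 alone, with 73 and 74 reads. Its exact 5p reads are left out. The next lowest, Mir181a-2, stood at 101.4 and 66.2 CPM. Without Mir181b-1, the miR-181 levels lay within the miR-30 range in each pup. The wider span than miR-30 therefore rests on Mir181b-1. Mir24-1 is missing from the miR-23/27/24 span. Mir30e led its family at 19469 ± 8066 CPM, followed by Mir30a at 9082 ± 3277 and Mir30d at 7580 ± 1865, with Mir30b at 339 ± 40.6 CPM. The hairpins with a recurring 5p arm, Mir30c-1 and Mir30c-2, stood at 54.2 ± 5.87 and 54.0 ± 6.54 CPM (each SD, n = 2). Mir181a-1 and Mir181a-2, by contrast, share their 5p arm and were 80.4-fold apart in pup 1 and 113-fold in pup 3. Mir181b-1 and Mir181b-2 were 65.4-fold and 109-fold apart, with the higher a copy on chromosome 1 and the higher b copy on chromosome 2. Reads that fit both copies are in none of these counts, so the folds compare only the reads that could be assigned to a copy.

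In the miR-23/27/24 clusters Mir23b stood at 6525 ± 380 CPM, Mir23a at 4659 ± 1127 and Mir27b at 838 ± 288. Mir27a stood at 103 ± 43.5 CPM, and Mir24-2, whose 3p arm recurs at Mir24-1, at 97.7 ± 17.5 (each SD, n = 2). Mir24-1 was not analysed here. Under TMM, 3 of the 6 miR-30 hairpins were past 1.5-fold higher in pup 3 and 0 lower, and of the 5 miR-23/27/24 hairpins 0 were higher and 1 lower, beside 17.4% higher and 15.5% lower over the 310 genes. By total counts, where those shares were 12.3% and 23.5%, 2 miR-30 hairpins were higher and 0 lower, and 0 and 2 of the miR-23/27/24 hairpins. No test of a difference between families was made.

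**Figure D4:**
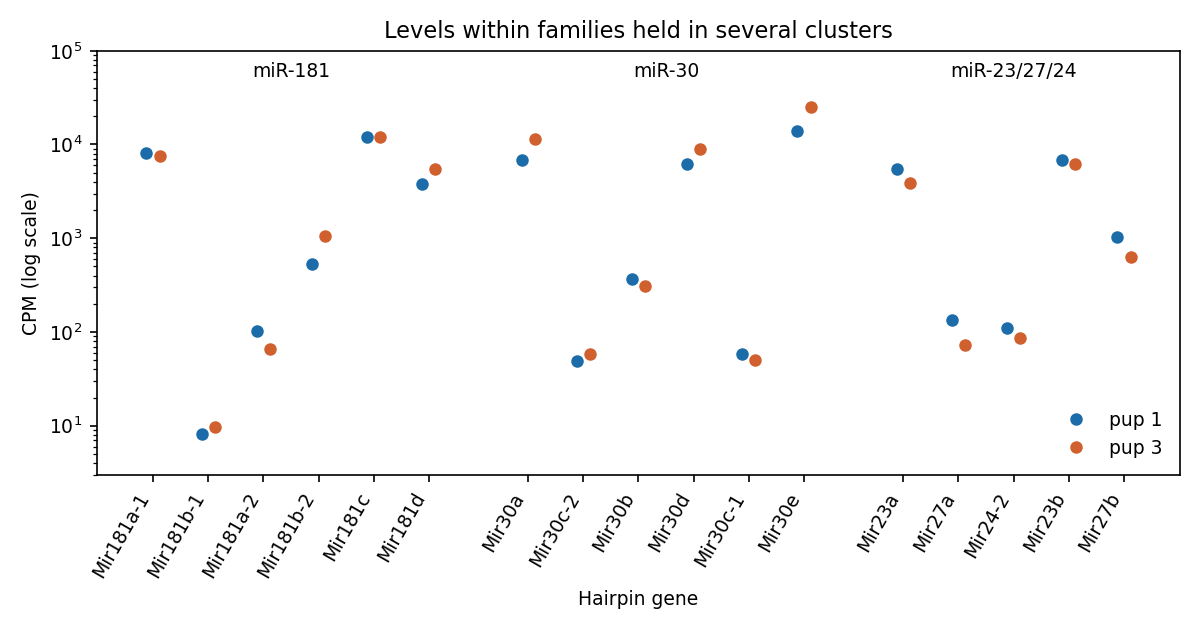
Levels in CPM on a log axis for the miR-181, miR-30 and miR-23/27/24 hairpins, pup 1 in blue and pup 3 in orange. The miR-181 points reach from 8.08 to 12135 CPM in pup 1, while the miR-30 points reach from 49.4 to 13765. The lowest miR-181 point in each pup is Mir181b-1, with 73 reads in pup 1 and 74 in pup 3.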

How the data were processed

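Small RNA reads of 2 forebrain samples were analysed from the deposited counts. The authors deposited whole-number read counts for each microRNA gene (mm10, annotation M4, per the notes beside the tables). The aligner and counter have names and versions not given in the sources used here. A table has 3 columns without a heading, and in all 1973 genes the first equals the sum of the others, read as strands. The first was used. Reads tallied as unmapped (14.9% in pup 1, 14.4% in pup 3), in several places or in no gene (1.85%, 1.26%) stayed out of library sizes, and 0 were ambiguous.

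Names and positions came from GENCODE M21 (1894 of 1973 identifiers matched) and sequences from RefSeq GRCm38.p6. Exact matches were sought among these entries, not the genome. The members and lists were chosen with earlier results of these data known. Named genes are the members, their neighbours by level, and the miR-30 and miR-23/27/24 hairpins. Mir137 and the Mir124a hairpins, named for the tissue check, were chosen after their values were seen. So were Mir203 and Mir205, named beside the miR-200 family. Pup ratios used counts plus 0.5, TMM factors of edgeR 4.0.16 (1.07 and 0.933), and no test. Alternatives were DESeq2 1.42.0 size factors, total counts, the strand column, other thresholds, and each pup alone. The ratio code was checked on simulated counts. R 4.3.3 and Python 3.11.15 were used.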

Additional observations from a re-analysis of the deposited data

How the results depend on the processing

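Depth limits only Mir181b-1, with 73 and 74 reads; arms, and reads that map to several places, are out of reach of these counts. The order of the 6 members was the same in each pup, so no scaling of whole libraries could change it, and it was also the same per 100 bases of hairpin. All 5 steps stayed apart under the 3 scalings. Of 85 alternative values, 32 could not leave the spread by construction: those of a single pup, and the strand column for shares and ratios within the family, which has 0 opposite reads. Of the other 53, 39 moved by no more than the spread between pups or the counting interval (counts and percentages: within 1.5 times), 14 moved by more and 0 reversed a call. With all tallied reads as denominator, which adds mostly reads that map to several places and unmapped reads, the family's share was 1.03%. Mir181c had 12144 CPM under TMM, 12147 under DESeq2 size factors and 12402 in the strand column, beyond its SD of 26.5. At a 2-fold threshold 1 member passed instead of 2, and 11.6% of the 310 genes instead of 32.9%; with no filter on low counts 49.5% of genes passed 1.5-fold. By total counts the number of members past 1.5-fold was again 2, but 1 was higher and 1 lower. Each pup alone gave a family share of 2.47% to 2.62%. A ratio between pups has no value with a pup left out. The 2 kb limit on pairs and the levels per 100 bases were added after the data were seen. No paired analysis was possible because there is only 1 group.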
